A study of Mus musculus with 1989 samples.

Results

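The cells described here are mouse thymocytes sorted as CD4+ T cells and profiled by scATAC-seq, an assay in which a transposase cuts and tags open chromatin. Members were the cells of this sort with a total count over all peaks of 1000 or more, which kept 96 of 119 CD4 sorted cells, out of 1988 cells with an open chromatin profile. The highest total left out was 988 and the lowest kept was 1003. They were set against 116 DP sorted cells (double positive, bearing both CD4 and CD8) and 175 DN sorted cells (double negative, bearing neither) that passed the same filter, and 91 CD8 sorted cells are given as a further reference. All cells came from thymus of male C57BL/6 mice whose labelled age was 7 weeks, with no treatment or allele labelled, and 1 profile is 1 cell. No animal was named for a cell, so each sort counts as 1 sample. There is therefore no replicate check, and no test or p-value is given. Ratios and shares carry exact 95% intervals, which cover counting error only.

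Thymocytes pass from the DN stage, in which the genes of the T cell receptor (TCR) β chain are rearranged, to the DP stage, in which the α chain is rearranged by the recombinase encoded by Rag1 and Rag2. DP cells whose receptor binds MHC class II are selected into the CD4 lineage under the transcription factor ThPOK, encoded by Zbtb7b, shut down Cd8a and Cd8b1, and acquire receptors for migration and survival before they leave the thymus. E proteins, encoded by Tcf3 and Tcf12, bind the E-box sequence and are active in immature thymocytes, and Id proteins inhibit them.

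A peak was called open in a cell where its count was 1 or more. CD4 sorted cells had a median of 2842.5 open calls, against 1997.5 in DP and 1969 in DN sorted cells, so at equal openness more CD4 cells carry a call. Ratios were therefore taken between open calls per 10000 open calls of each sort (its openness), from 270778 open calls in CD4, 232283 in DP, 507573 in DN and 241249 in CD8 sorted cells. The numbers in the cell names ran in series, whose meaning the labels do not give. The 55 CD4 cells numbered from 4000 had a median total of 7217, and the 41 numbered from 31000 had a median total of 1543. The second series held 16.8% of the CD4 open calls, and values within a series are given beside some of the results. DP sorted cells also held 31 cells of a 3000 series, and DN sorted cells 32, 32 and 58 cells of 1000, 2000 and 32000 series, in which there were no CD4 sorted cells. The ratios pool all series of a sort unless a series is named. No cell name was repeated, and the highest Jaccard index of open peaks between a CD4 sorted cell and another cell was 0.224.

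The sort was first checked against its markers. Zbtb7b was more open in CD4 than in DP sorted cells, with 28 against 3 open calls over its peaks (8.01-fold, 2.47 to 41.2), and DN sorted cells had 27 (1.94-fold, 1.1 to 3.43). At the peak 114 bp upstream of a Zbtb7b start (chr3:89391792-89395791), 15 of 96 CD4, 1 of 116 DP, 8 of 175 DN and 0 of 91 CD8 sorted cells were open. The peak 1.32 kb upstream of a start was open in 9 CD4, 1 DP, 7 DN and 7 CD8 sorted cells. There the ratio of CD4 to CD8 sorted cells was 1.15 (0.38 to 3.62). Cd40lg, which encodes the ligand through which helper cells activate B cells, had 53 open calls in CD4, 30 in DP and 58 in DN sorted cells (1.52-fold over DP, 0.951 to 2.46, and 1.71-fold over DN, 1.16 to 2.53), but 0.992-fold and 0.722-fold in the 31000 series with 4 calls in CD4 sorted cells. Ccr7, the chemokine receptor that guides selected cells to the medulla, was 1.46-fold (1.06 to 2.02) as open as in DP and 1.3-fold (1.01 to 1.67) as open as in DN sorted cells, with 109, 64 and 157 open calls. Cd4 itself did not separate the sorts, with 25 open calls in CD4, 22 in DP and 38 in DN sorted cells (0.975-fold of DP, 0.528 to 1.81, and 1.23-fold of DN, 0.713 to 2.1). The peak centered 2.07 kb inside the gene (chr6:124884152-124888151) was open in 26% of CD4, 13.8% of DP, 14.3% of DN and 27.5% of CD8 sorted cells. Relative to all open calls this was 1.34-fold of DP (0.688 to 2.69) and 1.87-fold of DN (1.03 to 3.4), and after each cell was thinned to 1000 counts the shares were 6.25%, 5.17%, 4% and 6.59%. The intronic peak 8.67 kb inside was open in 0 CD4, 6 DP, 9 DN and 7 CD8 sorted cells. Of the 4 markers, 3 were thus higher than in DP sorted cells, Cd40lg with an interval that included 1, and Cd4 was not.

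Sequences of 5 regions are shown because the comparisons below turn on them: 2 central stretches of peaks that were lower in CD4 than in DP sorted cells (Notch3 and Cd8b1) and 3 that were higher (Il7r, Nr4a3 and Cd28). They were chosen after their values were seen. Each is the central 300 bases of a 4000 bp peak, on the plus strand of GRCm38.p6 as given by RefSeq, and none overlaps an exon. Capitals mark matches, on either strand, to the E-box CAGCTG, the TCF/LEF motif CTTTGA, the RUNX motif TGTGGTT and the GATA motif AGATAA, and no match overlaps another. The regions lie at chr17:32164298-32164597 (an intron of Notch3), chr6:71333113-71333412 (an intron of Cd8b1), chr15:9574913-9575212 (45.2 kb upstream of Il7r, between genes), chr4:48074860-48075159 (25.9 kb downstream of the Nr4a3 start) and chr1:60758261-60758560 (12.1 kb downstream of the Cd28 start).
Notch3: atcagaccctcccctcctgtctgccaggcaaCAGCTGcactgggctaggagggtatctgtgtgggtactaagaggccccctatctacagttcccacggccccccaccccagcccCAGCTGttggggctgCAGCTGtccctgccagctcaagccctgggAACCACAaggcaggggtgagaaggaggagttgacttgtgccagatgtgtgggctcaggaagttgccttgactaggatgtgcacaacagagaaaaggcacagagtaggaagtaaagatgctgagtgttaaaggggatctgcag
Cd8b1: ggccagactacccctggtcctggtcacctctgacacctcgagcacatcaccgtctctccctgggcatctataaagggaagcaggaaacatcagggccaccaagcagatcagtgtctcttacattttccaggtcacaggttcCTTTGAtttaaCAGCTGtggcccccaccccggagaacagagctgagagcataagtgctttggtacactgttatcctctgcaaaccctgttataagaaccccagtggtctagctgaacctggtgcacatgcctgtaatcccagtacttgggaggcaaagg
Il7r: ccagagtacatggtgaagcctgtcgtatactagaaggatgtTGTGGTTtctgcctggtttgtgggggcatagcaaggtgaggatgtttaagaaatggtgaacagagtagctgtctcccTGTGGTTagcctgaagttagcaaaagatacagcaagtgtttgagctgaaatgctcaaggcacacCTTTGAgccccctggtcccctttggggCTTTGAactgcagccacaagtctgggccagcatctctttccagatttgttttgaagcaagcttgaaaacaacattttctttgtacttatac
Nr4a3: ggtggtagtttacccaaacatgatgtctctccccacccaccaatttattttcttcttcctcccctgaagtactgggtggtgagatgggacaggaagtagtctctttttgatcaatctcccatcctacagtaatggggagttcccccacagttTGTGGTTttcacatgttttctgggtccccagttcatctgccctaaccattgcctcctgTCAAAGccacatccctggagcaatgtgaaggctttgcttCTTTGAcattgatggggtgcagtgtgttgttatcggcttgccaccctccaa
Cd28: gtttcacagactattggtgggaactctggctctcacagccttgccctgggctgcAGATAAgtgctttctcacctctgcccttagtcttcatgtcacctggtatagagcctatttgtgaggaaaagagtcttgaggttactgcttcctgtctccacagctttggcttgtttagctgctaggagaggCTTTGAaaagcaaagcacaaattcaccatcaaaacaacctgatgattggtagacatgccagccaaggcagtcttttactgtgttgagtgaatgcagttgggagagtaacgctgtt
The Notch3 stretch held 3 E-boxes and 1 RUNX match and the Cd8b1 stretch 1 E-box beside 1 TCF/LEF match. The Il7r stretch held 2 TCF/LEF and 2 RUNX matches, the Nr4a3 stretch 2 TCF/LEF and 1 RUNX match, and the Cd28 stretch 1 TCF/LEF and 1 GATA match, and none of these 3 held an E-box. Of all 15450 tested peaks, 22.3% held an E-box in a window of this length at their center, 18.8% the TCF/LEF motif, 12.8% the RUNX motif and 8.99% the GATA motif. A match is a description of the letters and not a binding site.

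Over the genome, CD4 sorted cells differed from both other sorts in either direction, and the peaks that were higher lay mostly away from promoters. Among 15450 non-overlapping peaks open in at least 20 CD4, DP and DN sorted cells together, 2294 (14.8%) were at least 2-fold higher in CD4 than in DP sorted cells and 2525 (16.3%) at least 2-fold lower. Against DN sorted cells 1558 (10.1%) were higher and 2119 (13.7%) lower. In all, 859 peaks (5.56%) were higher than in both sorts and 1251 (8.1%) were lower than in both, and for 466 and 457 of these both intervals excluded 1. A promoter, here a peak centered within 2 kb of a transcription start, made up 54.4% of tested peaks, 39.6% of the lower peaks and 21.5% of the higher peaks. The median distance to a start was 0.591 kb, 6.41 kb and 15.3 kb in the same order. Promoter peaks held 48.5% of all open calls of CD4, 53.2% of DP and 50.2% of DN sorted cells, and the median number of open cells was 39 for tested, 33 for lower and 27 for higher peaks. The part of both in the position of the higher peaks was not tested. CD8 sorted cells, which the choice of peaks did not use, had 273 open calls per 10000 in the higher peaks, against 523 in CD4, 133 in DP and 174 in DN sorted cells. In the lower peaks CD8 sorted cells had 445 per 10000, against 151 in CD4, 672 in DP and 509 in DN sorted cells.

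Because the counts that choose a peak also set its ratio, the choice was repeated in 1 label series and read in the other. In the 4000 series 336 peaks of 7121 tested were at least 2-fold higher than in both sorts, and in the 41 CD4 cells of the 31000 series they took 1.83% of open calls, against 0.888% in DP (2.06-fold, 1.77 to 2.42), 1.3% in DN (1.41-fold, 1.25 to 1.59) and 1.45% in CD8 sorted cells (1.27-fold, 1.08 to 1.49) of that series. The 356 peaks chosen as lower took 1.56% in CD4, 2.81% in DP, 1.87% in DN and 1.99% in CD8 sorted cells, which was 0.554-fold of DP (0.497 to 0.617) and 0.832-fold of DN (0.746 to 0.928). In both directions the ratio in the unused cells kept its side of 1, at 2-fold against DP for the higher peaks and closer to 1 than 2-fold against DN and for the lower peaks. All 7121 tested peaks took 50.3% of the open calls of CD4, 54.1% of those of DP and 46.7% of those of DN sorted cells of the 31000 series, which was 0.929-fold of DP and 1.08-fold of DN.

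The same reading was made cell by cell with the 798 peaks higher and the 895 lower than in DP sorted cells in the 4000 series, as the share of a cell's open calls in these peaks that fell in the higher ones. In the 41 unused CD4 cells the share ran from 31.8% to 65.8% with a median of 51%, and in 53 unused DP cells from 17.3% to 53.7% with a median of 28.4%. Of these DP cells 31 were of the 3000 series, and the 22 of the 31000 series had a median of 26.7% and an upper quartile of 32.9%. Of the CD4 cells 11 lay above the highest DP cell, and 1 DP cell lay above the CD4 median. The 145 unused DN cells had a median of 40.1% and the 14 unused CD8 cells a median of 43%, and both overlapped the CD4 cells. A cell's share rested on a median of 85 open calls in CD4 and 182 in DP cells.

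**Figure D1:**
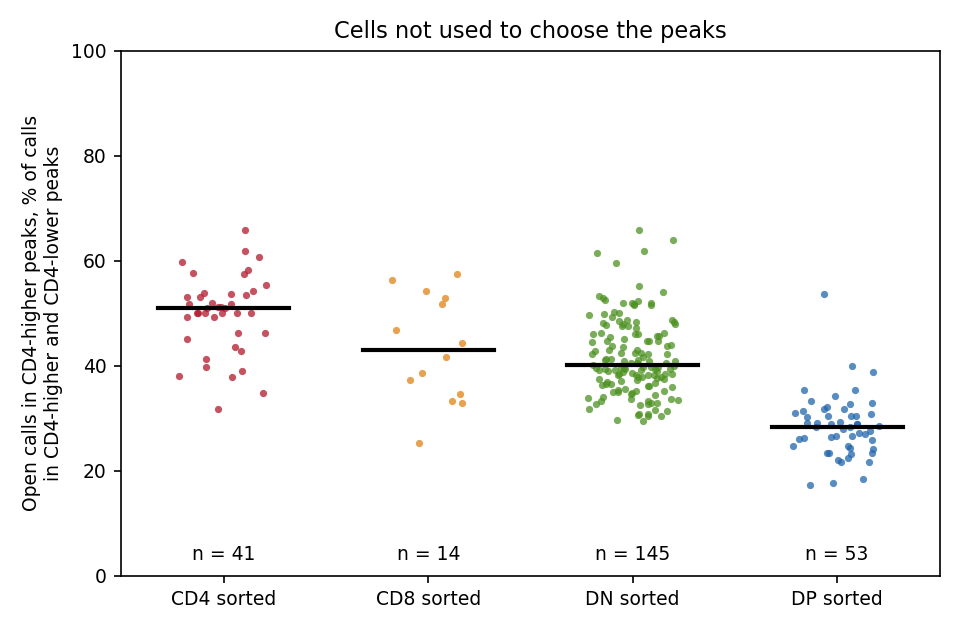
Share of each cell's open calls in CD4-higher peaks among its calls in CD4-higher and CD4-lower peaks (vertical axis, %), for cells of the label series not used to choose the peaks, by sort; points are single cells and bars are medians. The CD4 median of 51% lies above that of CD8 (43%), DN (40.1%) and DP sorted cells (28.4%), and the DN and CD8 cells overlap the CD4 cells.

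The 12 peaks with the clearest excess over both sorts were each open in 18 to 28 of the 96 CD4 sorted cells and in 0 to 2 of the 116 DP sorted cells. Their values chose them and are given as a description. A peak in an exon of Trak1, which encodes an adaptor for the transport of mitochondria (chr9:121453159-121457158, 863 bp downstream of a start), was open in 24 CD4, 0 DP, 3 DN and 7 CD8 sorted cells. With the 0 set to a floor of 3 counts over the sort it was 6.86-fold higher than in DP sorted cells (exact interval from 5.16). The peak nearest to Gpr183, which encodes an oxysterol receptor that directs lymphocyte migration, lay in an intron of Ubac2 (chr14:121944821-121948820) and was open in 19 CD4, 0 DP, 2 DN and 6 CD8 sorted cells. The peak 132 bp upstream of a start of Nfil3, a basic leucine zipper transcription factor (chr13:52979205-52983204), was open in 18 CD4, 0 DP, 4 DN and 2 CD8 sorted cells. All 3 were thus open in at most 7 cells of any other sort.

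Others of the 12 lay far from any start. The peak 109 kb upstream of Tnfaip3, which encodes the NF-κB inhibitor A20 (chr10:19122762-19126761), was open in 20 CD4, 1 DP, 4 DN and 4 CD8 sorted cells (17.2-fold over DP, 2.74 to 711, and 9.37-fold over DN, 3.14 to 37.7). The peak 99.3 kb inside Celf2, which encodes a splicing regulator, was open in 27 CD4, 1 DP, 2 DN and 4 CD8 sorted cells. The intronic peak 60.3 kb inside Siah3 was open in 28 CD4, 2 DP, 7 DN and 8 CD8 sorted cells, and 8 of the 28 CD4 cells were of the 31000 series. The other 6 peaks were nearest to Fbxo47, Ms4a4a, Cpa5, Sall3, Smarce1 and Slit3. That near Ms4a4a was open in 11 CD8 sorted cells and that near Sall3 in 13, whereas that in Slit3 was open in 0 and that near Cpa5 in 1. Each of the 12 peaks was open in at least 1 CD4 cell of the 31000 series, in 1 to 8 cells a peak.

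The 8 peaks with the clearest deficit were open in 0 to 2 CD4 sorted cells, and 0 of 96 cells allows a share of up to 3.77%. The Notch3 peak printed above was open in 1 CD4, 17 DP, 36 DN and 16 CD8 sorted cells (0.0505-fold of DP, 0.00121 to 0.322, and 0.0521-fold of DN, 0.00128 to 0.309). Notch3 encodes a Notch receptor of immature thymocytes. The peak 33.1 kb from the start of Wdhd1, a DNA replication gene, was open in 2 CD4, 32 DP, 47 DN and 22 CD8 sorted cells. An intronic peak of Fbxl12, which encodes a ubiquitin ligase subunit, was open in 0 CD4, 13 DP, 28 DN and 16 CD8 sorted cells. The other 5 were nearest to Emc3, Trim11, Akip1, Pabpc2 and Ttll11. CD8 sorted cells were open at all 8, in 4 to 22 cells a peak.

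Of transcription factors and other regulators of the CD4 lineage, Satb1, Zbtb7b and Tox were more open in CD4 than in both other sorts with intervals that excluded 1. For a gene, open calls were summed over the peaks nearest to its starts, and a locus was counted as higher or lower from 1.5-fold. Of all 11060 loci tested, 23.2% were higher and 21.7% lower than in DP sorted cells, and 13.9% were higher and 22% lower than in DN sorted cells. Of the 12 genes in the list of this lineage, 4 were higher and 3 lower than in DP sorted cells (median 0.991, against 0.994 over all loci). Against DN sorted cells 5 were higher and 0 lower (median 1.27, against 0.962). Satb1, which encodes a chromatin organizer of thymocytes, had 419 open calls in CD4, 211 in DP, 306 in DN and 308 in CD8 sorted cells (1.7-fold over DP, 1.44 to 2.02, and 2.57-fold over DN, 2.21 to 2.98). These calls were spread over 66 peaks. One of them, 380 kb upstream (chr17:52211148-52215147), was open in 26 CD4, 16 DP, 11 DN and 14 CD8 sorted cells. Tox, a factor needed for the CD4 lineage, was 1.49-fold as open as in DP and 1.58-fold as open as in DN sorted cells, with 148, 85 and 176 calls, but 0.865-fold of DN in promoter peaks alone. Gata3, the factor upstream of Zbtb7b, had 157, 89 and 265 calls (1.51-fold of DP and 1.11-fold of DN). Within the series its ratio to DN was 0.978 and 0.722, on the other side of 1. Bcl11b, a factor of T cell commitment, had 106, 173 and 193 calls and was 0.526-fold of DP (0.409 to 0.673) and 1.03-fold of DN. Tcf7 and Lef1, the TCF/LEF factors of thymocytes, were 0.895-fold and 0.863-fold of DP and 1.53-fold and 1.2-fold of DN, the latter 0.912-fold in the 31000 series.

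The coreceptor genes of the CD8 lineage were less open in CD4 than in DP sorted cells, and of the other tested genes of the list of CD8 and cytotoxic genes Eomes alone was counted as lower than in DP sorted cells. Cd8a had 20 open calls in CD4, 71 in DP, 41 in DN and 54 in CD8 sorted cells (0.242-fold of DP, 0.139 to 0.402, and 0.914-fold of DN). Cd8b1, which lies beside it and encodes the β chain of CD8, had 18, 82, 54 and 61 calls (0.188-fold of DP, 0.106 to 0.316, and 0.625-fold of DN, 0.345 to 1.08). The peak 3.84 kb upstream of Cd8a (chr6:71367585-71371584) was open in 7.29% of CD4, 26.7% of DP, 9.71% of DN and 25.3% of CD8 sorted cells. The intronic Cd8b1 peak printed above was open in 0 CD4, 19 DP, 16 DN and 9 CD8 sorted cells. At the floor of 3 counts it was 7.38-fold lower than in DP (interval up to 0.184-fold) and 2.85-fold lower than in DN sorted cells (up to 0.486-fold). The Cd8b1 promoter peak was open in 14 CD4, 23 DP, 21 DN and 28 CD8 sorted cells (0.522-fold of DP, 0.248 to 1.06, and 1.25-fold of DN), a smaller difference than at the intronic peak. Of the 11 tested genes of the list, 4 were higher and 3 lower than in DP sorted cells, and 2 were higher and 4 lower than in DN sorted cells (median 0.803). Against DP the median was 1.29 while the summed calls were 0.756-fold of DP (0.638 to 0.896), so the median and the sum lay on opposite sides of 1. Xcl1, a chemokine gene, had 59, 18 and 73 calls in CD4, DP and DN sorted cells (2.81-fold over DP, 1.64 to 5.07, but 0.992-fold in the 31000 series), and Eomes, a factor of cytotoxic cells, had 16, 37 and 56 (0.371-fold of DP, 0.193 to 0.683). Runx3, the factor of the CD8 lineage, had 60, 52, 204 and 93 calls in CD4, DP, DN and CD8 sorted cells (0.99-fold of DP and 0.551-fold of DN).

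Genes of the DP stage were lower in CD4 sorted cells more uniformly than any other list examined. Of 13 tested genes 10 were lower than in DP sorted cells and 0 higher (median 0.384), and 6 were lower than in DN sorted cells and 0 higher (median 0.677). Summed over the list the ratio to DP was 0.415 (0.362 to 0.474), and it was 0.428 in the 4000 series and 0.429 in the 31000 series. Rag2 had a single peak, at its start, which was open in 0 CD4, 22 DP, 6 DN and 12 CD8 sorted cells. At the floor it was 8.55-fold lower than in DP sorted cells (interval up to 0.157-fold). Rag1 had no peak at its start, and its single peak was centered 4.07 kb inside the gene. It had 0 calls in CD4 and 0 in DP sorted cells and was not tested. Endou, a marker of DP cells, was 0.265-fold and Dntt, which encodes terminal transferase, 0.384-fold of DP. Tcf12, which encodes the E protein HEB, was 0.948-fold of DP (1.36 in the 4000 series and 0.446 in the 31000 series) and 0.61-fold of DN (0.583 and 1.08).

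Genes of the DN stage were on balance lower than in DN sorted cells, a direction that turned when each cell was thinned to 1000 counts (median 1.12). Of 19 tested genes 10 were lower and 1 higher than in DN sorted cells (median 0.66, summed ratio 0.8, 0.716 to 0.893), and 3 were lower and 4 higher than in DP sorted cells (median 0.936). Notch3 had 20 open calls in CD4, 45 in DP, 104 in DN and 41 in CD8 sorted cells (0.36-fold of DN, 0.212 to 0.586). Bcl11a, a factor of early progenitors, had 5, 3, 32 and 5 calls (0.293-fold of DN, 0.0891 to 0.757), and Erg, a factor of stem and early T cells, had 34, 34, 111 and 21 (0.574-fold of DN, 0.379 to 0.85, but 1.23-fold with thinned cells). Gfi1b had 0 calls in CD4 sorted cells against 21 in DN, 3.73-fold lower at the floor (interval up to 0.36-fold). Il2ra, which encodes the α chain of the interleukin 2 receptor and marks both DN and regulatory T cells, had 64, 65, 94 and 60 calls (0.845-fold of DP, 0.589 to 1.21, and 1.28-fold of DN, 0.914 to 1.77). Its ratio to DN was 0.99 in the 4000 series and 0.825 in the 31000 series, so the pooled excess was in neither series. Its peaks went different ways. The peak 5.5 kb upstream was open in 8 CD4, 29 DP, 26 DN and 13 CD8 sorted cells, and that 10.7 kb downstream of the start in 31, 15, 32 and 17.

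**Figure D2:**
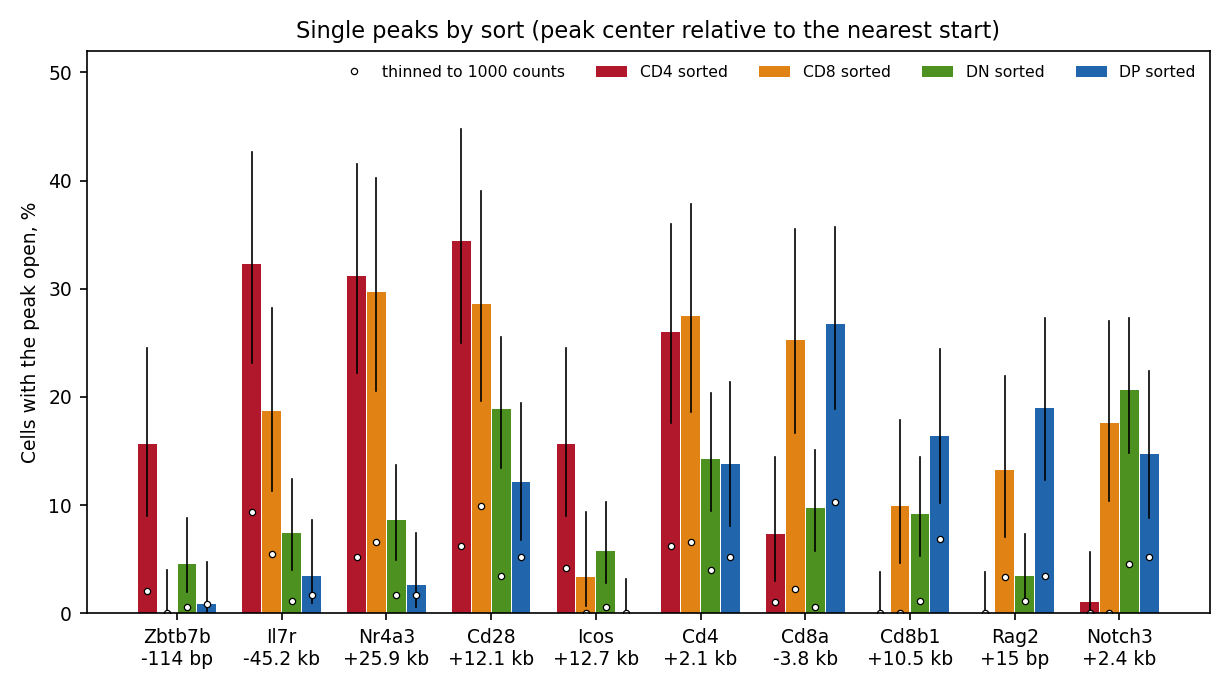
Share of sorted cells with the peak open (vertical axis, %) at 10 peaks named by the nearest gene and the distance of the peak center from its start; bars show CD4, CD8, DN and DP sorted cells, lines are exact 95% intervals of counting error, and white points are the shares after each cell was thinned to 1000 counts. Zbtb7b, Il7r and Icos stand highest in CD4 sorted cells, and Cd8b1, Rag2 and Notch3 are open in at most 1 of 96 of them.

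Among genes of maturation and egress, Il7r and S1pr1 were more open and Ccr9 and Plxnd1 less open than in DP sorted cells. Il7r, the interleukin 7 receptor that keeps naive T cells alive, had 77 open calls in CD4, 11 in DP, 54 in DN and 60 in CD8 sorted cells (6-fold over DP, 3.18 to 12.5, and 2.67-fold over DN, 1.86 to 3.86). Its peak 45.2 kb upstream (chr15:9573063-9577062), whose center is printed above, was open in 32.3% of CD4, 3.45% of DP, 7.43% of DN and 18.7% of CD8 sorted cells. After each cell was thinned to 1000 counts these shares were 9.38%, 1.72%, 1.14% and 5.49%. The CD4 share was the highest in both readings, and the thinned shares rested on 9 CD4 and 5 CD8 sorted cells. The Il7r sum also holds peaks 51.3, 70.4 and 78.5 kb upstream that lie inside the gene Spef2. They were open in 13, 6 and 3 CD4 and in 1, 0 and 1 DP sorted cells. S1pr1, the receptor that draws mature cells out of the thymus, had 83, 30, 93 and 78 calls (2.37-fold over DP, 1.55 to 3.73, and 1.67-fold over DN, 1.23 to 2.27). Against DN it was 2.58 in the 4000 series and 0.722 in the 31000 series, the latter from 10 calls in each sort. Klf2, a transcription factor needed for egress, had 64, 31, 88 and 53 (1.77-fold of DP and 1.36-fold of DN), but 0.62-fold and 0.516-fold in the 31000 series, from 5, 4 and 7 calls in CD4, DP and DN sorted cells. Ccr9, a chemokine receptor of cortical thymocytes, had 39, 74, 67 and 50 calls (0.452-fold of DP, 0.299 to 0.675, and 1.09-fold of DN). Plxnd1, which encodes a semaphorin receptor of thymocytes, had 18, 61, 52 and 46 (0.253-fold of DP, 0.141 to 0.434, and 0.649-fold of DN, but 1.15-fold of DN with thinned cells). Cxcr4, another chemokine receptor of cortical thymocytes, was 1.01-fold of DP (0.78 to 1.31) with 134 and 114 calls, and Itgb7, an integrin gene, was 0.643-fold of DP (0.329 to 1.24). Of the 17 genes tested, 6 were higher and 3 lower than in DP sorted cells (median 1.33), and 4 were higher and 1 lower than in DN sorted cells (median 1.3).

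Genes that answer TCR signals or act in selection were more often higher than lower. Ranked by the interval bound farthest past 1, Tnfrsf4, Nr4a3, Cd28 and Bcl2 came first. Of 26 genes 11 were higher and 1 lower than in DP sorted cells (median 1.32), and 7 were higher and 1 lower than in DN sorted cells (median 1.2). The summed ratio to DP was 1.37 (1.27 to 1.48), with 1.39 in the 4000 series and 1.01 in the 31000 series, so the excess over DP rested on the former. Nr4a3, an orphan receptor induced by TCR signals, had 113 open calls in CD4, 25 in DP, 133 in DN and 76 in CD8 sorted cells (3.88-fold over DP, 2.5 to 6.24, and 1.59-fold over DN, 1.23 to 2.06, but 0.896-fold of DN in promoter peaks). In the 31000 series alone it had 10, 5 and 9 calls in CD4, DP and DN sorted cells, ratios of 0.992 and 0.802. Its peak 25.9 kb downstream was open in 31.2% of CD4, 2.59% of DP, 8.57% of DN and 29.7% of CD8 sorted cells (8.58-fold over DP, 2.67 to 43.9), so CD4 and CD8 sorted cells were alike there within their intervals.

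Cd28, the costimulatory receptor of T cells, had 150, 71, 161 and 130 calls in CD4, DP, DN and CD8 sorted cells (1.81-fold over DP, 1.36 to 2.44, and 1.75-fold over DN, 1.39 to 2.2). The peak 12.1 kb downstream of its start was open in 33 CD4, 14 DP, 33 DN and 26 CD8 sorted cells (2.02-fold over DP, 1.05 to 4.09), while its promoter peak was open in 23, 25, 42 and 25 (0.789-fold of DP, 0.428 to 1.45). The 2 intervals overlap, and the distal peak was chosen after its values were seen. Bcl2, which protects selected cells from death, had 102, 44, 140 and 99 calls (1.99-fold over DP, 1.38 to 2.9), but in promoter peaks it was 0.322-fold of DP with 6 against 16 calls. Tnfrsf4, which encodes the costimulatory receptor OX40 and is prominent in regulatory T cells and their precursors, had 22, 6, 6 and 13 calls (3.15-fold over DP, 1.24 to 9.48, and 6.87-fold over DN, 2.7 to 20.7). The 1 gene lower than in both sorts was Id3, the inhibitor of E proteins that TCR signals induce, with 21, 38, 79 and 44 calls (0.474-fold of DP and 0.498-fold of DN, but 1.44-fold of DN in the 31000 series).

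Helper and regulatory T cell genes were more often higher than lower, among them the interleukin 2 gene and the Ctla4 and Icos loci. Of 17 tested genes 8 were higher and 3 lower than in DP sorted cells (median 1.45), and 4 were higher and 2 lower than in DN sorted cells (median 1.22). Il2, the growth factor of activated helper cells, had 25 open calls in CD4, 0 in DP, 16 in DN and 12 in CD8 sorted cells (7.15-fold over DP at the floor, interval from 5.4, and 2.93-fold over DN, 1.5 to 5.87), spread over 22 CD4 cells. Icos, a costimulatory receptor, had 84, 17, 66 and 45 calls (4.24-fold over DP, 2.5 to 7.62, and 2.39-fold over DN, 1.71 to 3.34), and its peak 12.7 kb downstream was open in 15 CD4, 0 DP, 10 DN and 3 CD8 sorted cells. Ctla4, the inhibitory receptor encoded beside Icos, had 84, 31, 125 and 68 calls (2.32-fold over DP, 1.52 to 3.63, and 1.26-fold over DN, but 0.866-fold of DN in the 31000 series). These 2 neighbours and Cd28 lie in a row on chromosome 1, and peaks between them were given to the nearest start. Il18r1, a cytokine receptor subunit, was 1.89-fold of DP and 2.58-fold of DN with 33, 15, 24 and 25 calls. The 3 genes lower than in DP sorted cells were Il5 (0.252-fold, 0.0728 to 0.712), Batf (0.462-fold, 0.258 to 0.805) and Il4ra (0.585-fold, 0.355 to 0.952). Foxp3, the factor of regulatory T cells, had 2, 0, 0 and 1 calls and was not tested.

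Genes of the TCR complex and its proximal signaling were on balance lower than in DP sorted cells, with exceptions in both directions. Of 19 genes 2 were higher and 8 lower than in DP sorted cells (median 0.819), and the summed ratio was 0.801 (0.741 to 0.867), with 0.812 and 0.805 in the 2 label series. Against DN sorted cells 4 were higher and 3 lower (median 1.04). Cd3e and Cd247, which encode the CD3 ε and ζ chains, had 19 and 41 open calls in CD4 sorted cells, 45 and 95 in DP and 67 and 105 in DN sorted cells (0.362-fold of DP, 0.2 to 0.632, and 0.37-fold, 0.25 to 0.539). Cd3d, the δ chain gene that lies beside Cd3g, had 40, 17 and 48 calls (2.02-fold of DP and 1.56-fold of DN). Coro1a, an actin regulator needed for egress and survival, had 28, 50 and 83 calls (0.48-fold of DP), and Prkcq, the kinase PKCθ downstream of the TCR and CD28, had 171, 93 and 195 (1.58-fold of DP and 1.64-fold of DN). In promoter peaks Prkcq was 0.468-fold of DP and 0.511-fold of DN.

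The Gimap family, a cluster of small GTPase genes that support survival of mature lymphocytes, was more open than in DN sorted cells at 6 of 8 members and lower at 0 (median 1.8, summed ratio 1.64, 1.35 to 2). Against DP sorted cells 3 were higher and 0 lower (median 1.4, summed ratio 1.39, 1.1 to 1.75). Gimap6 had 25 open calls in CD4, 9 in DP, 18 in DN and 17 in CD8 sorted cells (2.38-fold over DP, 1.08 to 5.8, and 2.6-fold over DN, 1.36 to 5.07). Gimap4 had 12, 0, 13 and 10 (3.43-fold over DP at the floor, interval from 2.38, and 1.73-fold of DN). Gimap7 and Gimap3 were 2.03-fold and 2.28-fold of DN, and Gimap5 was 0.691-fold of DN with 7, 6, 19 and 11 calls. Because the genes are neighbours, their peaks are not independent.

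**Figure D3:**
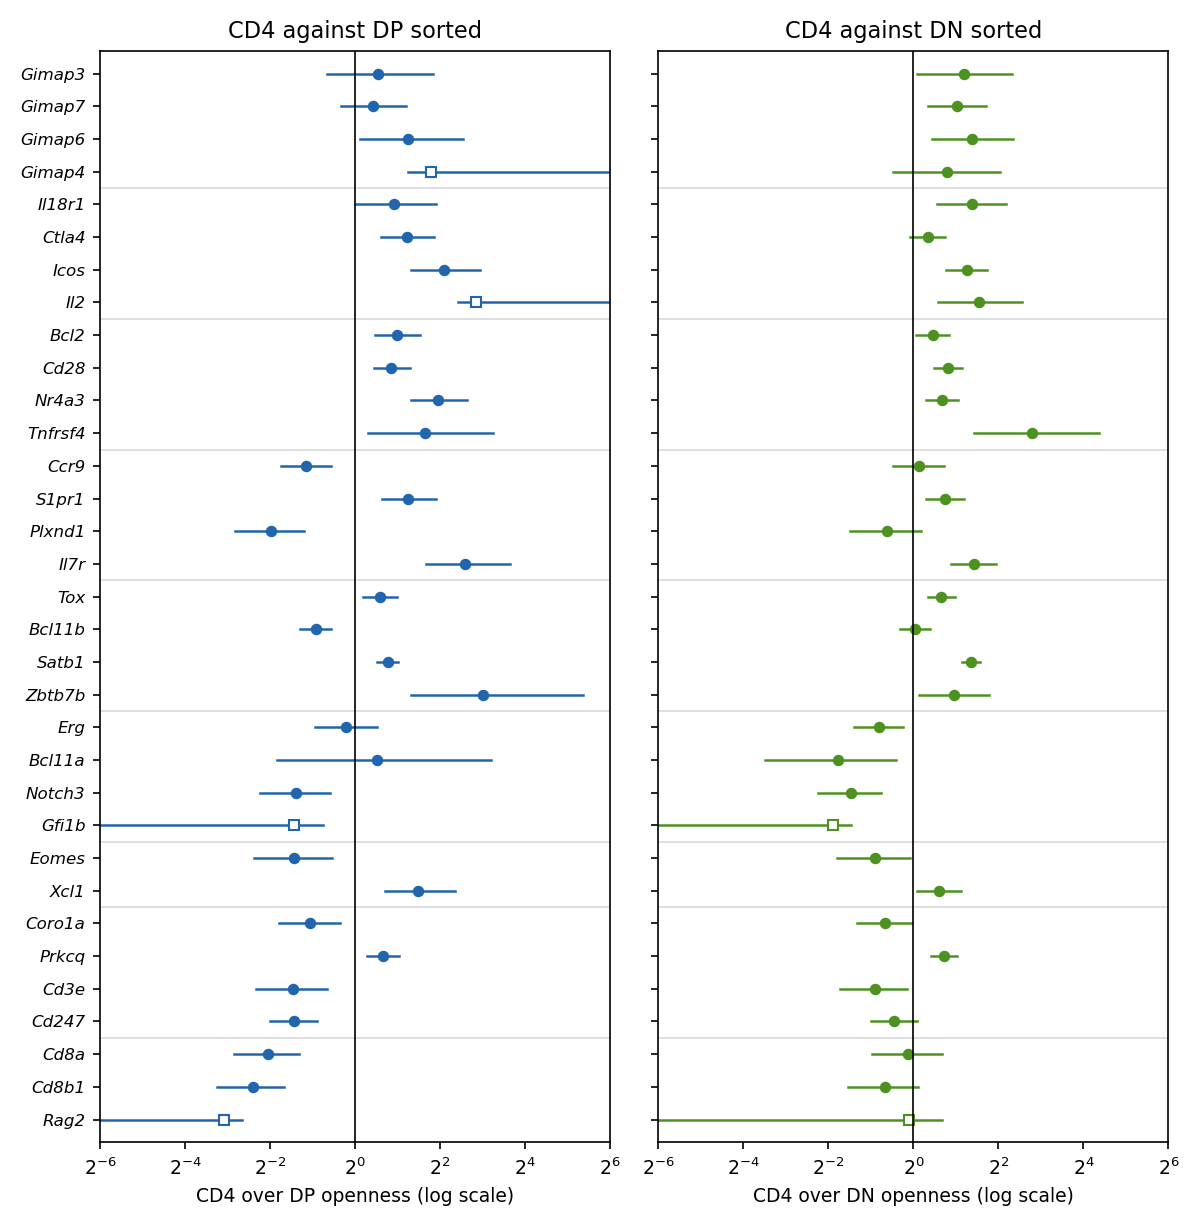
Openness in CD4 over DP sorted cells (left) and over DN sorted cells (right) on log scales, for genes named from 9 gene lists separated by grey lines. Lines are exact 95% intervals of counting error, and open squares are ratios at a floor of 3 counts where a sort had 0 calls. The lowest group, Cd8a, Cd8b1 and Rag2, is below 1 against DP sorted cells, and against DN sorted cells the interval of each includes 1.

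Among all loci, those furthest above DP sorted cells were, beside Il2, genes in none of the lists. Ttc28 had 45 open calls in CD4, 3 in DP, 37 in DN and 24 in CD8 sorted cells (12.9-fold over DP, 4.13 to 64.7), Fam129b 43, 3, 30 and 16, and Smarce1, a subunit of the BAF chromatin remodelling complex, 37, 2, 23 and 12. Elavl1, which encodes the RNA-binding protein HuR, had 19, 0, 15 and 10, and Alb, Gm7489 and Tmem30c had 20 or 21 in CD4 and 0 in DP sorted cells. These 7 loci were open in DN and CD8 sorted cells too, whereas 2 others were not. Gria4 and Ntm, both large neuronal genes, had 24 and 34 calls in CD4 sorted cells, in 19 and 26 cells, against 0 and 1 in each other sort. All 24 calls of Gria4 and 30 of the 34 of Ntm were in the 4000 series. Tbx15 and Myo16, among the loci furthest above DN sorted cells, had 34 and 16 calls in CD4 sorted cells, all in the 4000 series, against 7 and 3 in DN sorted cells. Iyd, another of these loci, had 25, all in the 4000 series. The part of the label series in these 5 loci was not tested.

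The loci furthest above DN sorted cells also held Cpa5 with 23 open calls in CD4 and 5 in DN sorted cells, Dcun1d3 with 20 and 4, Iyd with 25 and 7, Trim5 with 25 and 7, B3galt4 with 22 and 6, and Tnfrsf4. Iyd had 31 calls in DP sorted cells and was 0.692-fold of DP (0.392 to 1.21), the only 1 of the 10 below 1 against DP sorted cells. Furthest below DP sorted cells were Drc1 with 1 call in CD4 and 33 in DP sorted cells, Nkx2-4, Podxl2 and Rag2 with 0 and 22 each, Zc3h12b with 0 and 18, 4930544G11Rik with 1 and 26, Itgam with 4 and 43, and Trim43c with 0 and 15. The 2 with the most calls were Slc7a11, which encodes a cystine transporter, with 21 in CD4, 139 in DP, 122 in DN and 60 in CD8 sorted cells (0.13-fold of DP, 0.0778 to 0.206), and Capn3, a calpain protease gene, with 11, 76, 99 and 38 (0.124-fold of DP, 0.0595 to 0.235). Both were intermediate in CD8 sorted cells. Furthest below DN sorted cells were Akip1, Fbxl12, Rab31, Tmem119, Tsks, Ociad2 and Rspo4 with 0 calls in CD4 and 23 to 33 in DN sorted cells, and 4930544G11Rik, Atp2a1 and Lefty2 with 1 call in CD4 and 35 or 36 in DN sorted cells.

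The peaks that were lower in CD4 sorted cells carried the E-box at their centers more often than other peaks did. CAGCTG lay within 150 bp of the center of 41% of the peaks lower than in both sorts, 22.3% of all tested peaks and 12.8% of the peaks higher than in both. In 100 bp bins the central bins of the lower peaks held an E-box in 19.5% of peaks, against 5.4% in bins 1000 bp or more away. In the tested peaks these shares were 9.02% and 4.85%, and in the higher peaks 4.54% and 4.6%. The E-box was thus concentrated at the center of the lower peaks and not of the higher ones.

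**Figure D4:**
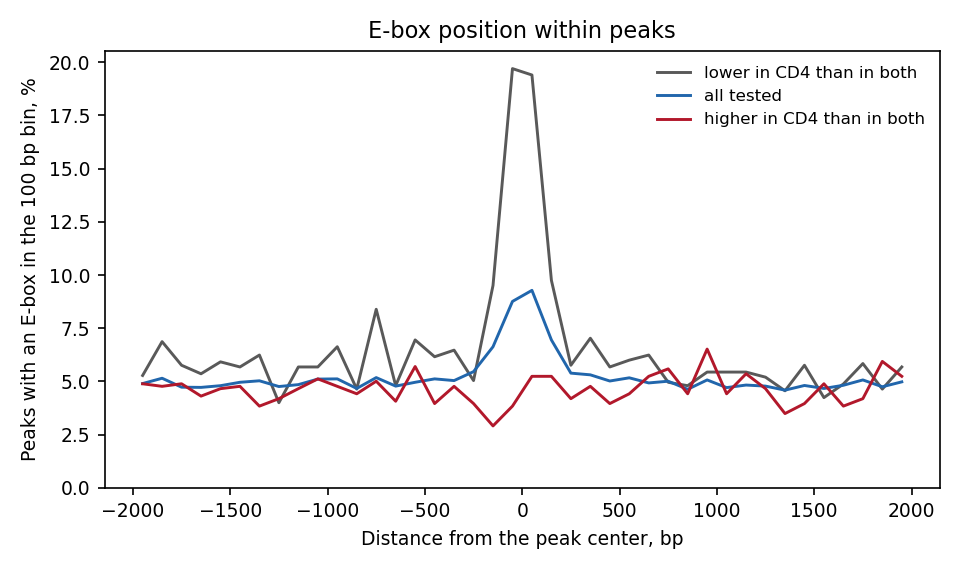
Share of peaks with an E-box (CAGCTG) in each 100 bp bin (vertical axis, %) by distance from the peak center (horizontal axis, bp), for peaks lower in CD4 than in both DP and DN sorted cells, all tested peaks and peaks higher than in both. The central bins reach 19.5% in the lower peaks, 9.02% in all tested peaks and 4.54% in the higher peaks.

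In distal peaks the share also went with the number of E-boxes. Among distal tested peaks, those outside promoters, the median CD4 over DP ratio was 1.12 with no E-box (4972 peaks), 0.78 with 1 (1648 peaks), 0.515 with 2 (367 peaks) and 0.368 with 3 or more (59 peaks), and against DN sorted cells it was 1.13, 0.868, 0.682 and 0.469. Of the same peaks 7.32%, 16.4%, 26.7% and 37.3% were lower than in both sorts, and 11.8%, 4.79%, 2.18% and 0% were higher than in both. In promoter peaks the lower share was 5.32% with no E-box, 8.03% with 1, 16.3% with 2 and 12.5% with 3 or more, the last from 24 peaks. To set aside the filter on open cells, open calls were summed over all distal non-overlapping peaks. The ratio to DP was 1.25, 0.848, 0.576 (0.554 to 0.599) and 0.4 (0.361 to 0.442) for 0, 1, 2 and 3 or more E-boxes. Against DN it was 1.11, 0.88, 0.686 and 0.497 (0.453 to 0.546), and against CD8 sorted cells 1.06, 0.9, 0.74 and 0.555 (0.499 to 0.617). In the 31000 series alone the ratios for 3 or more E-boxes were 0.509 against DP (0.391 to 0.661), 0.677 against DN (0.524 to 0.875) and 0.961 against CD8 sorted cells (0.66 to 1.43). The order thus held in both series against DP and DN sorted cells, whereas against CD8 sorted cells it did not hold in the 31000 series. The median GC content of these peak groups was 47.7%, 50%, 52% and 53.7% with rising number of E-boxes, and its part in the ratios was not tested.

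**Figure D5:**
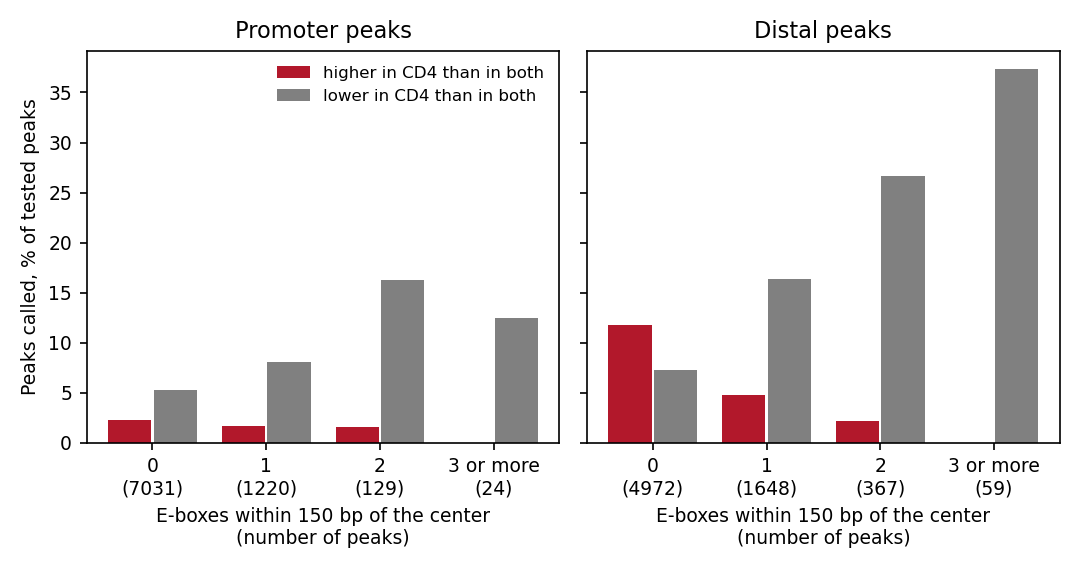
Share of tested peaks called higher or lower in CD4 than in both DP and DN sorted cells by 2-fold (vertical axis, %), by the number of E-boxes within 150 bp of the peak center, with the number of peaks in parentheses; promoter peaks are on the left and distal peaks on the right. In distal peaks the lower share goes from 7.32% with no E-box to 37.3% with 3 or more, and the higher share from 11.8% to 0%.

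Of 14 motifs, 7 took a share of open calls outside 0.9 to 1.1 times that of DP sorted cells and 3 outside this range against DN sorted cells. The E-box was lower against both (0.804 of DP, 0.794 to 0.813, and 0.863 of DN, 0.854 to 0.872), but within the range against DN in the 31000 series (0.927). The GATA motif was higher against both (1.18 and 1.11), as was the NF-κB motif, GGGA and TTTCC with any base between them (1.35 and 1.12), but the latter was 1.02 and 0.884 in the 31000 series. AP-1 (TGANTCA) was 1.16, IRF (GAAA and GAAA with 2 bases between) 1.14 and RUNX 1.11 of DP and all 3 were within the range against DN. TCF/LEF was within the range against both, at 1.09 and 1.09, as was ETS (AGGAAGT), at 1.07 and 1.08. Of the higher peaks 30.3% held the TCF/LEF motif, 25.7% the ETS motif, 19.2% the RUNX motif, 17.8% the GATA motif and 13.2% the AP-1 motif, against 18.8%, 17.2%, 12.8%, 8.99% and 7.3% of tested peaks. The higher peaks were less often promoters and had a lower median GC content (48%, against 56.7% of tested peaks). Among distal peaks alone TCF/LEF was in 33.8% of the higher and 28.3% of the tested peaks, and RUNX in 22.3% of each, so the difference for RUNX was not seen there. The E-box was in 12.9% of the higher, 29.4% of the tested and 51.8% of the lower distal peaks. Also within the range were KLF (GGGNGTGG), EGR (GNGTGGGNG), CTCF (CCA, AG and GGC, each 2 bases apart), NFAT (TGGAAA) and POU (ATGCAAAT), at 0.938 to 1.08 of DP and 0.934 to 1.02 of DN. In promoter and distal peaks apart, the E-box was 0.92 and 0.713 of DP and 0.942 and 0.809 of DN, GATA 1.06 and 1.09 of DN, and RUNX 1.04 and 1.05 of DP, so that some of these fell within the range. All motifs were searched on both strands.

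Markers of other cells moved in part with the sort. Of 14 B cell and antigen-presenting cell genes 8 were tested, of which 5 were higher and 1 lower than in DP sorted cells (median 1.97), and 2 were higher and 3 lower than in DN sorted cells. Summed openness was 4.76 per 10000 in CD4, 3.44 in DP, 5.32 in DN and 3.98 in CD8 sorted cells. The calls were spread over 60 of 96 CD4 cells, with at most 10 in 1 cell. The MHC class II gene H2-Aa had 23, 4, 20 and 4 calls (4.93-fold over DP, 1.69 to 19.6), whereas Ebf1 had 26, 39, 90 and 31, and Ciita and Itgax were at 0 in CD4 sorted cells. Cd79a and Cd86 were at 0 in CD4, DP and CD8 sorted cells with 1 and 3 calls in DN sorted cells, and Ms4a1 had no peak. Of 10 genes of innate-like lymphocytes 8 were tested, of which 4 were higher and 1 lower than in DP sorted cells (median 2.54, but 0.575 with thinned cells), and 4 were higher and 1 lower than in DN sorted cells (median 1.3). Their summed openness was 8.46, 8.22, 7.72 and 7.59 per 10000, and Ncr1 had no peak. Zbtb16, which encodes PLZF, had 30, 4, 36 and 17 calls and Il2rb 25, 3, 31 and 19. The part of such cells in the results was not tested. Of 10 tested genes that most cells use, 1 was higher and 3 were lower than in DP sorted cells (median 1.06).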

How the data were processed

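Single thymocytes were sorted and profiled by scATAC-seq. Reads were trimmed of adapters by the authors, aligned with Bowtie2 and cleared of duplicates with Picard, and peaks came from MACS2 on the pooled reads of every cell. The deposited values are raw counts in each peak of each cell, without normalization. Versions are not given in the sources used here. The submitters' processing notes name the build GRCm38.p5. The table has 138317 peaks of 4000 bp. With GRCm38, 27.9% of peak centers fell within 2 kb of a gene start, and 9.41% did so when moved by 100000 bp. Columns of 1446 other cells and the gene expression table were not used.

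Counts were limited to 1 per cell and peak. Overlapping peaks share reads, so 62504 non-overlapping peaks were taken greedily, those with the highest summed count in the sorted cells first. Peaks and loci open in 20 or more CD4, DP and DN sorted cells (loci: open calls) were compared, as ratios of open calls per 10000 with exact conditional binomial intervals (shares: Clopper-Pearson). A ratio against 0 calls used a floor of 3 counts over the sort. With 1 sample per sort no test across peaks was fitted, and a call means past 2-fold (peaks) or 1.5-fold (loci), with both counts raised to at least the floor. Each of the 96 CD4 cells kept had a total from 1003 to 29445. Peaks were given to the nearest protein-coding start in GENCODE M21. Doublets were not called. As an alternative each cell was thinned to the same total of 1000 counts (random seed 7).

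Named peaks were the 12 highest and 8 lowest against both sorts, and named loci the 10 highest and 10 lowest against each, ranked by the interval bound nearest to 1. From each gene list up to 4 genes with the bound farthest past 1 were named, and always Cd4, Zbtb7b, Ccr7, Cd40lg, Cd8a, Rag1, Rag2 and Il2ra. Single peaks of named genes, and other list genes given with values, were chosen after their values were seen. Some genes and 1 motif are not reported here. The members and lists were chosen with earlier results of these data known. Alternatives were other cell and peak filters, counts not limited, thinning, all peaks, a mean over cells, each label series alone, other locus definitions and other motif windows. Scripts were tested on simulated data. Python 3.11.15, numpy 2.4.6, scipy 1.17.1, pysam 0.24.0 and matplotlib 3.10.9 were used.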

Additional observations from a re-analysis of the deposited data

How the results depend on the processing

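No paired analysis was possible because no label pairs cells of different sorts, and the cell numbers name single cells. Each series alone, found in all 4 sorts, was an alternative. Counts of called features depended on the settings. From 15450 tested peaks, 1934 were left with thinned cells, 23659 with all peaks, 7121 with the 4000 series, 172 with the 31000 series, 26048 from 10 open cells and 7509 from 40. In that order the peaks past 2-fold against DP sorted cells, 4819 in all, became 488, 7646, 1693, 26, 7335 and 1444, and 8128 at 1.5-fold. Against DN sorted cells 3677 became 366, 5808, 1385, 24, 6724 and 881, and 6862 at 1.5-fold. Peaks higher than in both sorts, 859, became 58, 1389, 336, 2, 2193 and 145, and 1851 at 1.5-fold. Peaks lower than in both, 1251, became 94 with thinned cells, 356 and 2 in the series, 1271 from 10 cells, 388 from 40 cells and 2505 at 1.5-fold. Higher peaks outnumbered lower ones from 10 cells and not from 20 or 40. With the floor of 3 counts, a call of lower than both needs more open cells than a call of higher than both. The order of the 2 counts therefore depends on the filter and says nothing on the cells. Loci past 1.5-fold against DP, 4965, became 1879 with thinned cells and 443 in the 31000 series, and against DN 3967 became 1631 and 381. Motifs outside 0.9 to 1.1 went from 7 to 0 against DP and from 3 to 0 against DN with the motif anywhere in the peak, and against DN to 1 within 250 bp and 1 in the 31000 series.

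For peaks chosen in the 4000 series and read in the 31000 series, the higher ratio to DP of 2.06 was 1.48 at 1.5-fold and 1 with thinned cells, and that to DN of 1.41 was 2.26 with thinned cells. The lower ratio to DP of 0.554 was 0.692 at 1.5-fold, 0.451 with counts not limited and 0.876 with thinned cells, and that to DN of 0.832 was 0.954 at 1.5-fold. With thinned cells these rest on 2 and 4 peaks. Chosen in the 31000 series only 2 peaks were higher and 2 lower, which say nothing on stability. Read in the 4000 series the higher were 0.882-fold of DP (0.599 to 1.31) and 1.18-fold of DN (0.743 to 1.94). The lower were 0.94-fold of DP (0.564 to 1.59) and 0.673-fold of DN (0.406 to 1.13).

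Of 214 values of the named peaks under these alternatives, none turned direction. These peaks were chosen as the most extreme in the same cells, and most alternatives reuse those cells, so a turn was unlikely. In the 31000 series the named peak nearest to Smarce1 was open in 1 CD4 and 1 DN sorted cell, too few to compare. The absence of turns among the named peaks therefore says little on stability. Lists turned in 3 cases: the median of DN stage genes against DN was 1.12 with thinned cells, and that of innate-like genes against DP 0.575 with thinned cells and 0.858 with promoter peaks. With promoter peaks Bcl2 was 0.322, Cd28 0.789 and Prkcq 0.468 of DP, and Prkcq 0.511, Nr4a3 0.896, Tox 0.865, Smarce1 0.865 (also in its gene body, 0.865) and Cd8b1 1.25 of DN. With thinned cells Ebf1 was 1.01, Erg 1.23 and Plxnd1 1.15 of DN. In the 31000 series Nr4a3 was 0.992 of DP and 0.802 of DN, S1pr1 0.722 of DN and the NF-κB motif 0.884 of DN. In the 4000 series Zbtb16 was 0.703 of DN. The cause of these changes was not tested.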

Other observations

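The TCR loci differed by segment. Their genes are not among the loci named above, but their peaks were not excluded from the comparisons of peaks. Peaks nearest to Tra joining segments had 37 open calls in CD4, 36 in DP, 31 in DN and 21 in CD8 sorted cells, which was 0.882-fold of DP (0.542 to 1.44) and 2.24-fold of DN (1.35 to 3.73). Peaks nearest to Tra variable segments had 165, 146, 245 and 126 (0.969-fold of DP, 0.771 to 1.22, and 1.26-fold of DN, 1.03 to 1.54). The β chain constant genes Trbc1 and Trbc2 had 9, 19, 28 and 15 calls and were 0.406-fold of DP (0.162 to 0.943), whereas Trb variable segments had 103, 65, 160 and 102 (1.36-fold of DP, 0.987 to 1.88). Trac had 16, 12, 21 and 11 calls, and Trdc, the constant gene of the δ chain, had 2, 6, 10 and 4 (0.375-fold of DN, 0.0399 to 1.76). Rearrangement deletes parts of these loci, and its part in the values was not tested.

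At Cd40lg 2 intronic peaks were more open in CD4 than in DN sorted cells, with intervals that overlap that of the sum over the locus. The peak centered 4309 bp inside was open in 11 CD4, 3 DP, 4 DN and 4 CD8 sorted cells (3.15-fold of DP, 0.831 to 17.6, and 5.15-fold of DN, 1.53 to 22.2), and that 9979 bp inside in 8, 1, 2 and 6 (6.86-fold of DP, 0.92 to 305, and 7.5-fold of DN, 1.5 to 72.5). The upstream peak 22.6 kb away was open in 5, 10, 11 and 17. These peaks were chosen after their values were seen.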
